A study of Drosophila melanogaster with 2 samples.

Results

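The 10 genes described here build apical-basal polarity and cell junctions in Drosophila epithelia. They are par-6, dlg1, crb, Mcr, baz, aPKC, shg, scrib, l(2)gl and sdt, out of 13945 protein-coding genes of chromosomes 2, 3, 4 and X. They were listed by name with earlier results of these data known, and 4 of them were chosen as promoter-bound. A gene counted as having a peak when a summit lay in its body or within 2000 bp of it. Binding of pebbled (peb, also called hindsight), a zinc finger transcription factor, was mapped by ChIP-seq, using entire Drosophila melanogaster embryos of 0 to 24 h. The embryos were of the strain peb-GFP, which makes peb as an eGFP fusion protein, and chromatin was precipitated with an antibody to GFP. There was 1 group of 2 biological replicates, with no second condition and no second genotype. Whole embryos mix all cell types and stages of that span, so a peak from many weakly bound cells and a peak from a few strongly bound cells cannot be told apart. The sequencing depth is unknown, because the peak lists hold no read counts.

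Epithelial cells keep an apical side, a basolateral side and a belt of junctions between them. The Crumbs complex (crb, with its cytoplasmic partner sdt) and the Par complex (baz, par-6 and the kinase aPKC) mark the apical side, and the Scribble group (scrib, dlg1 and l(2)gl) opposes them on the basolateral side. The cadherin made by shg holds neighbouring cells together at adherens junctions, and Mcr, a protein of the complement-like macroglobulin family, is needed for septate junctions, the paracellular barrier of insect epithelia. Genetic studies in flies have tied hindsight to the upkeep of epithelial architecture in the amnioserosa, tracheae and retina.

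The joint list, called on both replicates together, held 2845 peaks and is the list used unless another is named. It placed 11 peaks at 7 of the 10 genes, and shg, l(2)gl and sdt had 0. Of the 7, par-6, dlg1, crb and Mcr were chosen with their promoter peaks already known, so nothing is read from this count. Across all protein-coding genes, 22.9% had a peak by the same rule, and 34.2% of the 4254 genes between the lengths of the shortest and longest of the 10 (3745 and 67702 bp) had one. The 10 genes had a median length of 18988 bp, against 2166 bp for all protein-coding genes, and the rule gives longer genes more room for a summit. Those with a peak had a median length of 19464 bp and those without 11538 bp. The strongest peak, at baz, had a signal value of 374 and the weakest, at aPKC, 9.0. The signal value is the authors' own value for each peak, and it orders peaks inside one list only. The 11 values had a median of 63.2, against 73.6 over the whole joint list, with 4 peaks above that median and 7 below it. Overlapping calls at aPKC were counted separately.

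The replicates gave unequal support. A joint peak was counted as supported when it overlapped, by 1 bp or more, a peak that passed the authors' reproducibility threshold in a replicate's own list (1418 peaks in replicate 1 and 2054 in replicate 2). Peaks at 3 genes, baz, dlg1 and scrib, had support in both replicates. By that count 11.7% of all protein-coding genes, and 17.9% of those in the length range above, had a supported peak. The 10 genes were chosen with earlier results of these data known, so nothing is read from the 3 genes. Of the 11 peaks, 3 were supported by both replicates, 3 by replicate 2 alone (at par-6, dlg1 and crb), 0 by replicate 1 alone and 5 by neither (at Mcr, aPKC and the weaker peak of baz). In the whole joint list 40.8% of peaks were supported by both. Shares of all joint peaks supported by 1 replicate alone or by neither were not computed, so nothing is read from those counts. The strongest and the weakest call at aPKC overlap and match the same entries of the replicates, so they are not separate sites among the 5. Taken by itself, replicate 1 had peaks at 3 of the 10 genes and at 13.6% of all genes, and replicate 2 at 5 of the 10 and at 18.7%.

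A set of 5 windows of the RefSeq genome sequence (dm6, plus strand, 5′ to 3′) shows the sequence under peaks with different replicate support. Each is centred on a summit with 100 bp either side, lies in an intron and overlaps no annotated exon, and capitals mark the motifs described further down.
dlg1, stronger peak, both replicates (chrX:11390706-11390906): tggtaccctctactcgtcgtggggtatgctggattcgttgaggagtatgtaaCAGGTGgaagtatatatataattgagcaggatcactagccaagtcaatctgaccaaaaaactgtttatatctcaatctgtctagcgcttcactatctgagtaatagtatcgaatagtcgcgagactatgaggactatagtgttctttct
scrib, both replicates (chr3R:26557578-26557778): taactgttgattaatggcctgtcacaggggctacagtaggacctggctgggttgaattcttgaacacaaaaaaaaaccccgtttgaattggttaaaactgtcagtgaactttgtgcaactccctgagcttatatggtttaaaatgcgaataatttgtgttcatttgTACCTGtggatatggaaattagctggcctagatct
dlg1, weaker peak, replicate 2 (chrX:11379212-11379412): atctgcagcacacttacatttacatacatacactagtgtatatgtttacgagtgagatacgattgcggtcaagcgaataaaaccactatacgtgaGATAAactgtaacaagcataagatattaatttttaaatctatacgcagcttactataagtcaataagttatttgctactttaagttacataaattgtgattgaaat
crb, replicate 2 (chr3R:24295949-24296149): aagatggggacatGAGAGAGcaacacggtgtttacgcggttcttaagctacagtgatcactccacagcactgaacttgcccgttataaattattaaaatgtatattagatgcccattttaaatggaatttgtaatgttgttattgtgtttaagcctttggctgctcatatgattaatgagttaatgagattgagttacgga
Mcr, neither replicate (chr2L:8082157-8082357): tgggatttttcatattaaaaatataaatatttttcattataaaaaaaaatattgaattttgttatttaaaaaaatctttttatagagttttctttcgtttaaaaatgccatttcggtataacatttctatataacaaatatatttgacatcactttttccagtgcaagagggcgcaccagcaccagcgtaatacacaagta
Windows of that size around all joint summits, not only intronic ones, were poor in G and C. Their median GC content was 35.3% (quartiles 30.8 and 40.3%), against 42.3% in windows 1000 bp to either side of the summits. The 11 summits of the 10 genes ran from 24.9% at Mcr to 47.8% at the upstream peak of aPKC. The strongest, at baz, had 28.4%, whereas the stronger peak of dlg1 and that of scrib had 40.8% and 39.8%.

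The Par complex held both the strongest and the weakest peak, the weakest being a call that overlaps a stronger peak of aPKC. The gene baz, which encodes the PDZ scaffold known as Par-3 in other animals (FBgn0000163, chromosome X, 17160006 to 17200728, plus strand, 40.7 kb), had a peak at 17178588 to 17178797. Its signal was 374 in the joint list, rank 66 of 2845, and the replicates' own lists gave 193 in replicate 1 and 169 in replicate 2. Both replicates placed it near their top, at rank 47 of the 68609 entries of the ranked list of replicate 1 and rank 109 of the 49814 entries of replicate 2. The summits of the replicates lay within 5 bp of the joint summit. It was 210 bp wide, whereas 87.7% of joint peaks, and the other 10 at these genes, were exactly 324 bp wide. Only 8.93% of joint peaks were narrower, and the 100 strongest joint peaks had a median width of 240 bp.

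The strong baz peak was far from the annotated start of any protein-coding gene. Its summit lay 18696 bp downstream of the single annotated transcription start site (TSS) of baz, and the nearest TSS of another coding gene, xmas, was 19396 bp away. Among the 600 joint summits more than 5000 bp from every coding TSS (21.1% of those on the main chromosomes), it ranked 7 by signal, where the median signal was 69.6. In 2 of the 4 baz transcripts the summit fell in exon 2, a 3624-bp exon of the 5′ UTR (17175347 to 17178970), 268 bp before its end. In the other 2 transcripts the same bases are intron. A further peak of 52.5 (17176605 to 17176928) lay in the same exon, 16761 bp from the TSS, and ranked 2288. It overlapped entries of 30.6 in replicate 1 and 22.9 in replicate 2, neither past the threshold.

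The gene par-6 encodes a PDZ adaptor of aPKC (FBgn0026192, chromosome X, 17703352 to 17707096, plus strand), and its peak at 17702747 to 17703070 had a signal of 110 and ranked 746. The replicates gave 66.3 in replicate 2, which passed the threshold, and 42.5 in replicate 1, which did not (score 580, where the lowest score kept was 830). The entry of replicate 1 was higher in signal than those of dlg1 and scrib, which passed. The summit lay 443 bp upstream of the par-6 TSS and inside the neighbouring gene CG8188, 115 bp downstream of its nearest TSS. CG8188 is on the minus strand, with its outer TSS 328 bp from that of par-6, so the peak sits at a head-to-head promoter and is nearer to the neighbour.

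For aPKC, the atypical protein kinase C of the complex (FBgn0261854, chromosome 2R, 14944458 to 14962969, minus strand), 3 joint peaks were listed, none with a thresholded peak in either replicate. The strongest, 63.8 at 14954575 to 14954898 and rank 1764, lay in an intron of 5 of the 12 transcripts, 3719 bp downstream of the nearest TSS. Its entries in the ranked lists were 30.0 in replicate 1 (score 649) and 33.0 in replicate 2 (score 421). The weakest, 9.0 at 14954778 to 14955101 and rank 2782, overlapped it and matched the same entries. Its score in the joint list was nevertheless 1000. The remaining one, 43.0 at 14963932 to 14964255, was upstream of aPKC by 1125 bp and inside ckn, 802 bp downstream of a TSS of that gene. It overlapped an entry of 28.5 in replicate 2 and none in replicate 1. The outer TSSs of aPKC and ckn are 323 bp apart on opposite strands. Just past the 2000 bp limit, a peak of 48.5 lay 2018 bp from aPKC and 697 bp from a TSS of ckn.

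**Figure D1:**
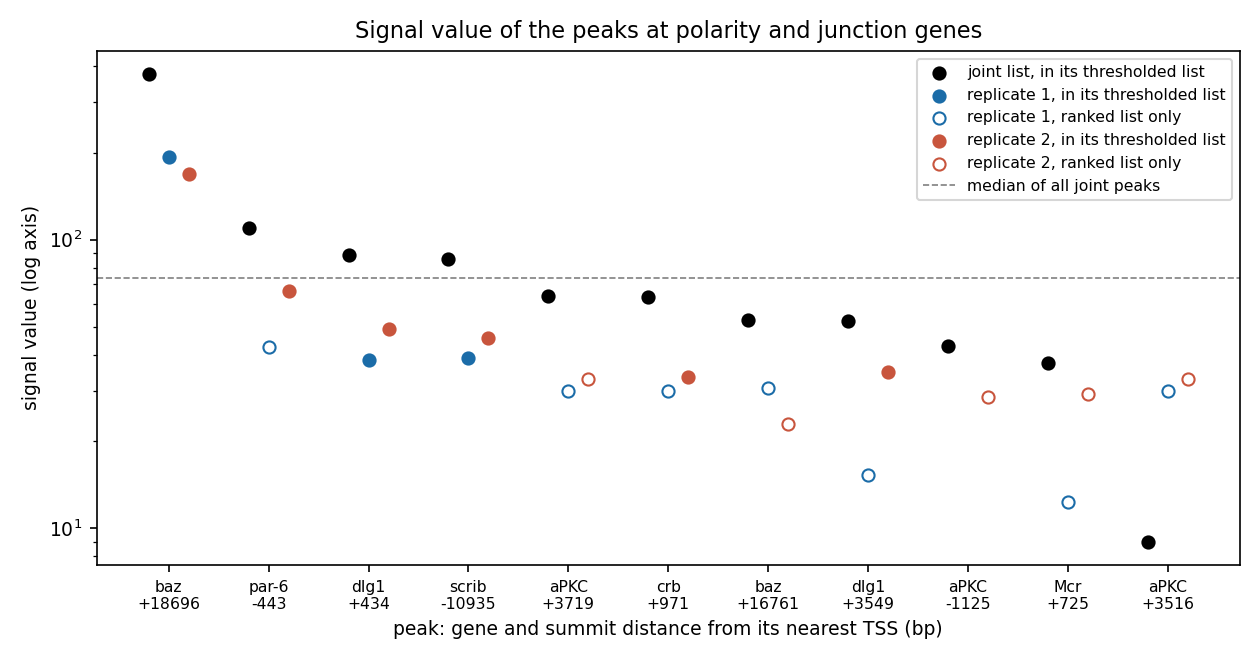
Signal value (log axis) of the 11 joint peaks at the 10 genes, ordered by the joint value, with the overlapping entry of each replicate's ranked list. Filled points are in a thresholded list and open ones are not; baz stands highest with 374, the dashed line is the median of all joint peaks, 73.6, and the last aPKC peak shares its replicate entries with the first.

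In the Scribble group, dlg1 and scrib had peaks in both replicates and l(2)gl had none. The gene dlg1 encodes a membrane-associated guanylate kinase scaffold (FBgn0001624, chromosome X, 11369665 to 11409776, plus strand, 7 TSSs). Its stronger peak, 88.6 at 11390644 to 11390967, ranked 1057 and gave 38.2 in replicate 1 and 49.1 in replicate 2. The summit lay 434 bp downstream of the nearest of the 7 TSSs, 21141 bp into the gene, and in an intron of 16 of the 21 transcripts. The weaker peak, 52.4 at 11379150 to 11379473, ranked 2294 and lay 3549 bp downstream of the nearest TSS. It passed in replicate 2 with 34.7 but had only 15.3 in replicate 1, at rank 14322 of that list, against rank 1971 in the ranked list of replicate 2. The stronger peak thus stood at like ranks in both ranked lists, 1223 in replicate 1 and 1133 in replicate 2, and the weaker one did not.

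The gene scrib encodes a scaffold of leucine-rich repeats and PDZ domains (FBgn0263289, chromosome 3R, 26536350 to 26604051, plus strand) and is the longest of the 10. Its single peak, 85.8 at 26557516 to 26557839, ranked 1122 and gave 38.8 in replicate 1 and 45.7 in replicate 2, both past the threshold. The summit lay 21328 bp into the gene and 10935 bp upstream of its second TSS, in an intron of 17 of the 18 transcripts. No other coding TSS was closer than 22461 bp, that of plum. The gene l(2)gl, which encodes the WD40 protein Lethal giant larvae (FBgn0002121, chromosome 2L, 9839 to 21376, minus strand), lies near the tip of its chromosome arm. Its strongest entry in the joint ranked list was 20.1, rank 27637 of 92933, and the nearest joint peak was 51840 bp away.

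In the Crumbs complex, crb had a peak and sdt had none in the joint list. The gene crb encodes the transmembrane determinant of the apical membrane (FBgn0259685, chromosome 3R, 24295078 to 24314541, plus strand). Its peak, 63.2 at 24295887 to 24296210, ranked 1792, with the summit 971 bp downstream of the single TSS and in an intron of all 4 transcripts. Replicate 2 supported it with 33.4 (score 941), and replicate 1 held an entry of 30.0 with a score of 790, short of the 830 needed.

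The sdt gene encodes a guanylate kinase scaffold that binds the tail of Crumbs (FBgn0261873, chromosome X, 8178549 to 8240474, plus strand, 61.9 kb). The joint list had no summit there, but the smaller list that the authors named conservative held 2 peaks. One was 51.0 at 8196879 to 8197202, 3841 bp downstream of a TSS, and the other 49.6 at 8205891 to 8206214, 10076 bp upstream of a TSS, both in an intron of 9 of the 14 transcripts. In the ranked list behind the joint one, the same intervals had scores of 545 and 721, below the threshold. The replicates held entries there of 25.2 and 24.1 in replicate 1 and of 30.1 and 23.8 in replicate 2, none past the threshold. The conservative list also held a peak at dlg1 that the joint list lacked (53.9 at 11370817 to 11371140, 1314 bp downstream of a TSS), and it lacked 3 joint peaks, those of Mcr, the weaker one of dlg1 (52.4) and the upstream one of aPKC (43.0).

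Of the junction genes proper, Mcr had a weak peak and shg none. Mcr (FBgn0267488, chromosome 2L, 8074117 to 8082982, minus strand) had a peak of 37.4 at 8082095 to 8082418, rank 2690, 725 bp downstream of its TSS in its intron. It passed in neither replicate, with 29.2 in replicate 2 (score 600) and 12.3 in replicate 1 (score 36), and the 2 summits lay on opposite sides of the joint one, 85 and 105 bp away. For shg, the gene of E-cadherin (FBgn0003391, chromosome 2R, 21049654 to 21057197, minus strand), the strongest ranked joint entry was 35.0 with a score of 216, beyond the 3′ end of the gene. The nearest joint peak, of 115, was 15811 bp from shg and 219 bp from a TSS of CG10527. All 3 genes without a joint peak had entries in the ranked joint list, 19 at shg, 12 at l(2)gl and 59 at sdt, none with a score of 830 or more.

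**Figure D2:**
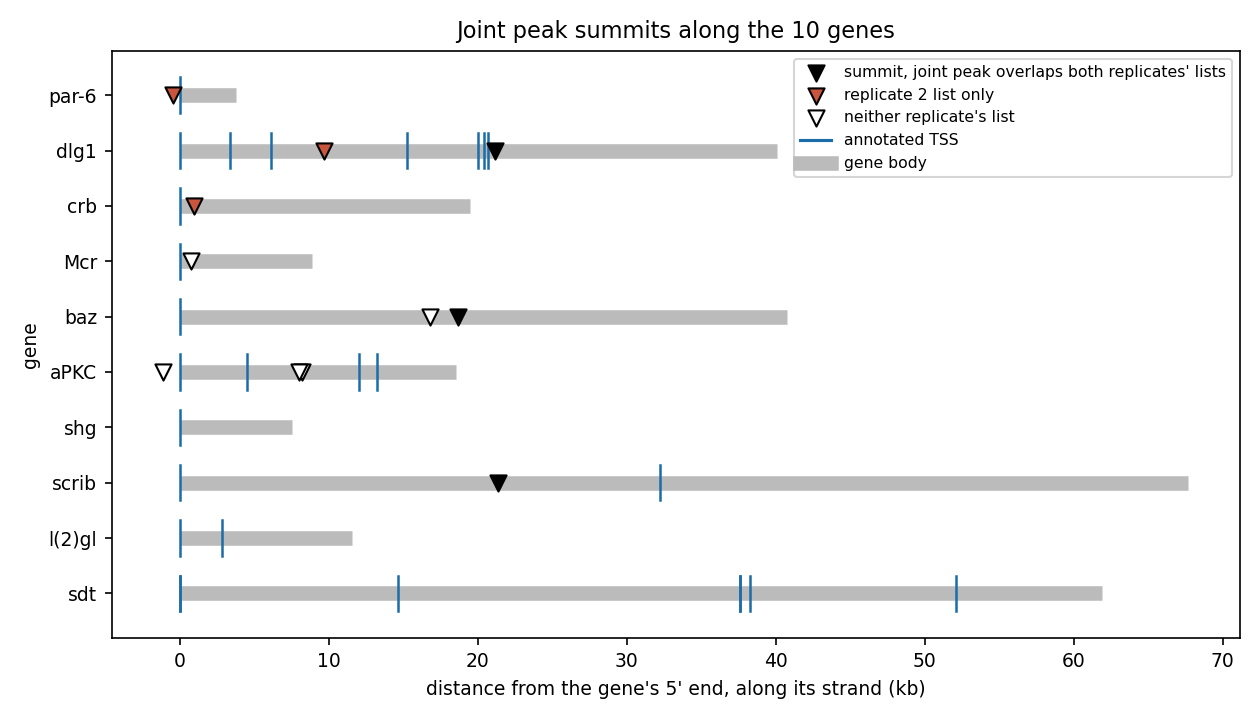
Summits of the joint peaks (triangles) along the 10 genes, in kb from each gene's 5′ end, with gene bodies in grey and annotated TSSs as blue lines. Black triangles are supported by both replicates, red ones by replicate 2 and white ones by neither; the black triangles of baz and scrib lie deep in the gene, 18.7 and 21.3 kb from the 5′ end.

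Each summit was placed against the annotated TSSs of its own gene. Within 1000 bp of a TSS there were 4 peaks, at par-6, dlg1, crb and Mcr, and 7 lay farther away. Over all protein-coding genes, 13.5% had one that close, but these 4 genes were chosen with their promoter peaks already known, so nothing is read from their count. Of the 4 promoter peaks, 3 were downstream of the TSS (dlg1, crb and Mcr), and par-6 was the exception. Of the 11 summits, 9 fell inside the gene and 2 upstream of it, and none fell in a coding exon of any transcript. Introns of every transcript that spans the summit held 7 of them, and the pair at baz was exonic in some transcripts. Shares of all joint peaks at these positions were not computed. By the rule used, a summit counts anywhere in a gene body, and these genes had a median length of 18988 bp. Nothing is therefore read from the placements.

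**Figure D3:**
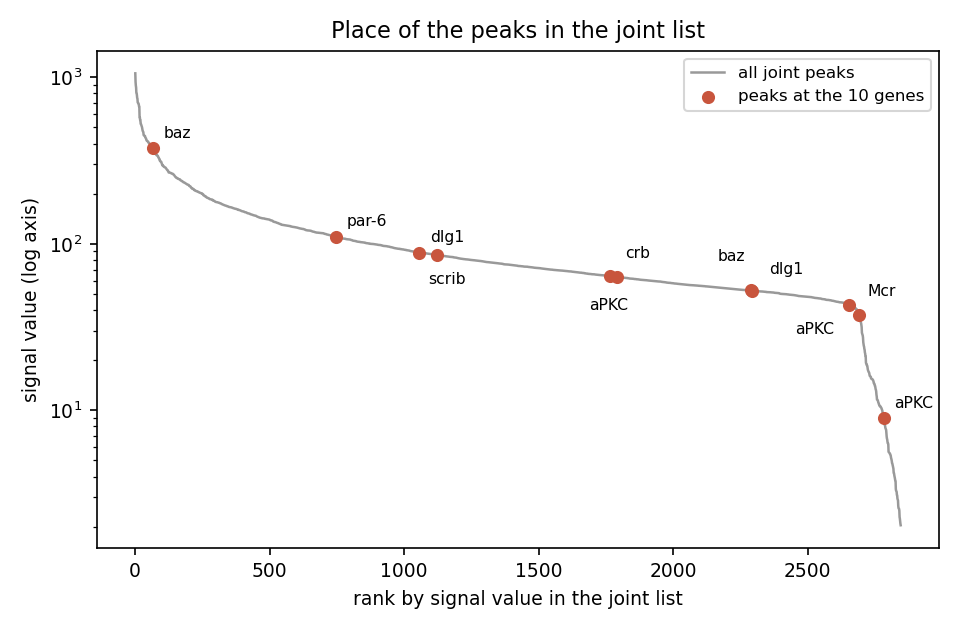
Signal value (log axis) of all 2845 joint peaks against their rank, with the 11 peaks at the 10 genes in red. The strong baz peak sits at rank 66, par-6, dlg1 and scrib between ranks 746 and 1122, and the rest from rank 1764 to 2782.

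Short motifs were searched in the 201-bp windows on both strands. GAGAG, bound by the Trithorax-like factor, occurred in 1 of the 11 windows, at crb, where 2 overlapping copies lay 83 bp or more from the summit; it occurred in 24.5% of all joint summit windows and 22.7% of windows 1000 bp away. GATAA, read by GATA factors, occurred in 2, the weaker peaks of dlg1 and baz (38.5% of summit windows and 33.9% of the outer windows). CACCTG occurred once, at the stronger dlg1 peak (4.96% and 8.25%), and CAGGTA once, at scrib (4.61% and 4.39%). TATCGATA, the DNA replication-related element, was in 0 of 11 (2.57% and 0.474%). AACCGGTT and the looser AACNGGTT, which holds it, both of the Grainyhead type, were in 0 of 11 (0.317% and 0.237%, and 2.32% and 2.31%). So was ACCACCC, a piece of the consensus of mammalian RREB1 (1.41% and 2.35%). The strong baz window and the windows of par-6, Mcr and aPKC held none of the patterns.

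A wider list of 37 further polarity and junction genes was read by the same rule. Of these, 14 had a joint peak and 23 had none, against the 22.9% of all genes. Of the 21 in the length range of the 10 genes, 7 had a peak, against 34.2% there. Of the 37, 12 had a peak supported by both replicates, against 11.7% of all genes. Among these 12, ed, pyd and Fas3 are longer than the length range of the 10 genes, and Lkb1, Tsf2 and bou are shorter. The share of 17.9% for genes in that range is therefore not a like comparison for the 12. A peak no farther than 1000 bp from a TSS was present at 9 of the 37, against 13.5% of all genes. The genes with and without a peak had median lengths of 8301 and 9093 bp.

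Partners of the apical complexes had no peak: the scaffolds Patj and veli and the GTPase Cdc42 had 0 joint peaks each. The conservative list held a peak at Cdc42, and with a limit of 5000 bp in place of 2000 bp the joint list gave both Cdc42 and veli one. Adherens junction genes had peaks in 4 of 7 cases, beside 22.9% of all genes, and of these 4, pyd and ed, with 104829 and 84373 bp, are longer than any of the 10 genes. The strongest was cno, the fly Afadin that links cadherin to actin, with 213 (chromosome 3R, 5215446 to 5215622), 79.4 in replicate 1 and 133 in replicate 2. The adhesion protein gene ed had 5 peaks, led by one of 147.5, pyd, the fly ZO-1, had 4, led by 128.7, and Vinc, the vinculin gene, had 1 of 111.8. No peak was listed at arm, alpha-Cat or p120ctn, which encode the catenins bound to E-cadherin, nor at shg itself.

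Septate junction genes had peaks in 8 of 19 cases, beside 22.9% of all genes, led by Tsf2, which encodes a transferrin-like junction protein, with 176 and a summit 99 bp upstream of its TSS. The next were bou, a Ly6-type protein gene, with 133, vari, a guanylate kinase scaffold gene, with 123.8, and Gli, a cholinesterase-like protein gene of tricellular junctions, with 118.4. The summits at bou and vari were nearer to a TSS of another gene, 288 bp from ogre and 241 bp from Pomp, names added after the values were seen. Among other polarity genes, Moe, which encodes the actin linker Moesin, had 3 peaks led by 174.6, and the kinase gene Lkb1 had 1 of 92.9. The smooth septate junction genes Ssk, mesh and Tsp2A had 0.

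**Figure D4:**
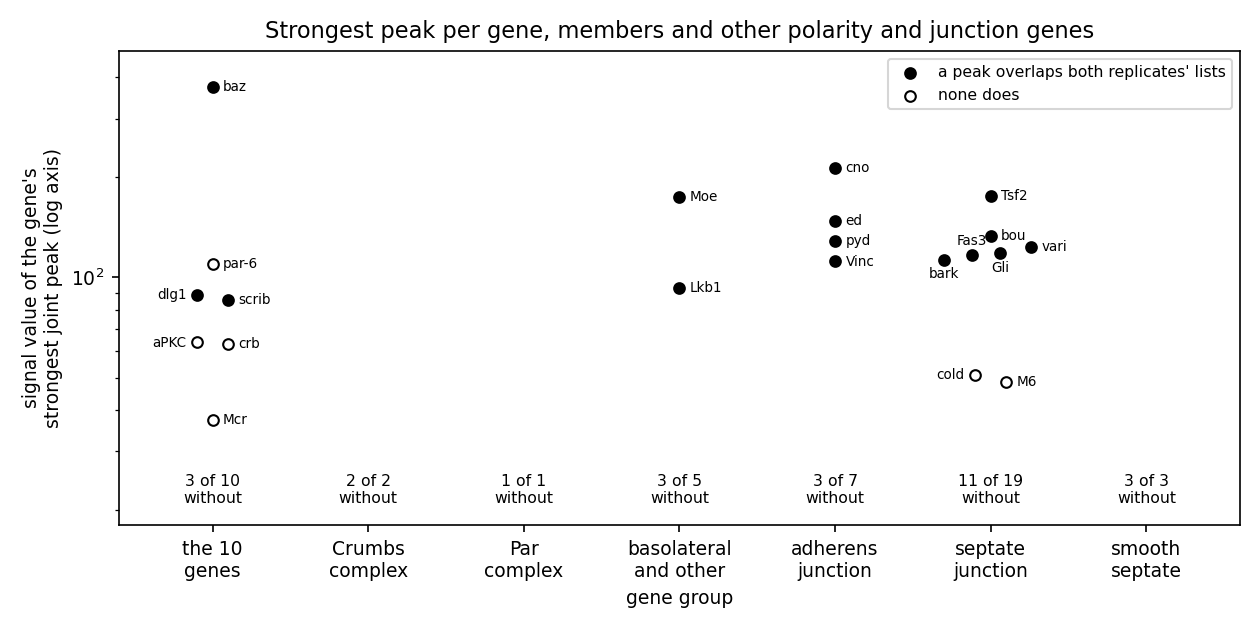
Signal value (log axis) of each gene's strongest joint peak, for the 10 genes at the left and the 37 further genes by group, with the number of genes that have none written below. Filled points have a peak supported by both replicates, and baz stands above every other gene shown, followed by cno with 213.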

How the data were processed

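Peaks of 2 biological replicates were deposited on dm6, per the labels. The signal value and the summit of each peak are the authors', and so is the score, a scaled irreproducible discovery rate (IDR) capped at 1000, as the deposited lists' layout shows. Replicate lists were called on each replicate's alignments and the joint and conservative lists on those of both, with a further file taken as the control, per the file headers deposited with the samples. The aligner and the peak caller are not given in the sources used here. The extra columns of the ranked lists were not used here, nor were alignments or coverage tracks.

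Summits were assigned to Ensembl release 115 genes (BDGP6.54) by symbol, with all 10 members and 37 further genes found. Peak ends lay within the chromosome lengths of the RefSeq sequence (Release 6). Python 3.11.15, numpy 2.4.6, pandas 2.3.3 and matplotlib 3.10.9 were used, and the assignment was tested on simulated peaks. No test was run, since there is 1 group, and shares of all genes stand beside counts. Members and lists were chosen with earlier results of these data known, 4 members as promoter-bound. The named genes were all members, up to 4 further genes per group by signal, and genes that share a member's summit. The alternatives were other lists, score, distance and overlap rules. P-values and intervals are not given.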

Additional observations from a re-analysis of the deposited data

How the results depend on the processing

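The number of the 10 genes with a peak was 7 in the joint list, 3 to 5 with 1 replicate left out and its partner's list used, and 7 in the conservative list, where sdt replaced Mcr. It was 4 within 1000 bp of a TSS, which drops baz, aPKC and scrib. Without replicate 2, the genes with a peak were dlg1, baz and scrib. Without replicate 1, par-6 and crb were added to them. A score of 1000, the gene body alone, 5000 bp, the nearest TSS and any overlap gave 6 or 7. The number supported by both replicates stayed at 3 with an overlap of 50% or summits within 100 bp, and became 7 with the ranked lists, which held an overlapping entry in both replicates for 98.2% of all joint peaks. The wider list had 14 genes with a peak, 12 to 13 with 1 replicate left out, and 9 within 1000 bp of a TSS. It had 14 in the conservative list, where Cdc42 replaced cold, and 17 with 5000 bp, which added Cdc42, veli and nrv2. No paired analysis was possible because there is 1 group. Peaks at baz, dlg1 and scrib were the ones found in the joint list, the conservative list and each replicate's list. Depth is unknown, so a gene without a peak is one where none passed the authors' threshold.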
